A study of Mus musculus with 4 samples.

Results

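The genes described here are the 92 neighbours of Smchd1 that were expressed in mouse epiblast stem cells (EpiSCs). They are the entries of the deposited gene table on chromosome 17 that start from 60 Mb up to 90 Mb in the mm9 build, without Smchd1 itself, and have a mean FPKM of at least 1 over the 4 libraries (FPKM is a level scaled to transcript length and library depth). The interval holds 158 entries, of which 65 fell under that level, and 11471 genes of the whole table reached it. No member passed through 1 genotype alone. The members nearest to the threshold were Emilin2 at a mean of 1.47 FPKM, Cyp1b1 at 1.56 and Ptprm at 1.79, and the entries just outside it were Galnt14 at 0.940, 1110020A21Rik at 0.873 and Rmdn2 at 0.869. The members run from Efna5, which starts 8.74 Mb before the start of Smchd1, to Ston1, which starts 17.3 Mb after it.

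EpiSCs are pluripotent cells, here derived from female E6.5 mouse embryos. The 4 libraries were MD1/MD1 XistdeltaA/+, +/+ XistdeltaA/+, MD1/MD1 Xist1lox/+ and +/+ Xist1lox/+, where MD1/MD1 and +/+ are the Smchd1 genotypes. All 4 were heterozygous for a mutation of Xist, the noncoding RNA that silences an X chromosome, and the labels give 1 strain background to all, C57BL6/J crossed with an F1 of JF1 and C57BL6/J. Each combined genotype had 1 library, so a difference within a pair had no replicate check, and the labels do not say how many embryos or lines a library came from. In these bulk samples fewer cells of a type and less RNA per cell cannot be told apart.

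SmcHD1 is a chromatin protein of the SMC family that takes part in X inactivation and in the silencing of some autosomal gene clusters. MD1 is a loss-of-function allele recovered in a chemical mutagenesis screen. When an allele is bred into another background, a block of its original chromosome travels with it, and the genes of that block are then inherited with the allele. Sequence differences between mouse strains can change how strongly a gene is expressed in cis, so linked genes can differ between mutant and wild-type animals whatever the mutated protein does. The labels do not name the strain whose DNA flanks MD1 in these cells. For the linked genes, Smchd1 genotype and flanking haplotype cannot be told apart in this design.

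Smchd1 itself (mm9, chromosome 17, 71693834 to 71824683, minus strand) had 6.68 FPKM in the MD1/MD1 and 27.0 FPKM in the +/+ XistdeltaA/+ library, and 5.98 FPKM in the MD1/MD1 and 20.9 FPKM in the +/+ Xist1lox/+ library. Libraries held 7301034 to 8008500 allele-assigned reads (reads placed on a parental allele by a strain variant), and 76825 to 83096 of these fell on the members. All 7 EpiSC markers were at 1 FPKM or more in each library. Their summed FPKM was 1480 in MD1/MD1 and 1026 in +/+ with XistdeltaA/+, and 1481 in MD1/MD1 and 1561 in +/+ with Xist1lox/+. With XistdeltaA/+, Dnmt3b, Sox2, Fgf5 and Pou5f1 were higher in MD1/MD1, and Nanog, Otx2 and Zic2 were lower. The summed FPKM of 6 macrophage markers was 896 in MD1/MD1 and 22.6 in +/+ with XistdeltaA/+, where 5 of the 6 were under 1 FPKM in +/+ and Tyrobp was listed at 0, against 286 in MD1/MD1 and 315 in +/+ with Xist1lox/+. The sum of 8 fibroblast markers was 120 in MD1/MD1 and 43.1 in +/+ with XistdeltaA/+, and 57.9 in MD1/MD1 and 56.6 in +/+ with Xist1lox/+. Marker sums thus differed between the libraries of the XistdeltaA/+ pair. The part of cell content in the MD1/MD1 against +/+ differences of that pair given here was not tested.

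The linked genes were read almost entirely from maternal-type alleles in MD1/MD1 cells and from both alleles in +/+ cells. The paternal share is the percentage of a gene's allele-assigned reads that carry the paternal variant. Pooled over the 78 members with at least 20 such reads in every library, it was 1.80% in MD1/MD1 (exact Clopper-Pearson 95% interval 1.71 to 1.89) and 47.7% in +/+ (47.3 to 48.0) with XistdeltaA/+. With Xist1lox/+ it was 1.52% in MD1/MD1 (1.43 to 1.61) and 46.6% in +/+ (46.3 to 47.0). Intervals cover counting error only, because each combined genotype had 1 library, and they leave out the spread between genes. These reads carry no molecular identifiers, so copies of 1 molecule could be counted apart. The median over genes was 0.299% in MD1/MD1 and 49.6% in +/+ with XistdeltaA/+, and 0.125% in MD1/MD1 and 48.3% in +/+ with Xist1lox/+. Of the 78 members, 30 had no paternal read in the MD1/MD1 XistdeltaA/+ library and 33 had none in MD1/MD1 Xist1lox/+.

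Fisher's exact test per gene (two-sided, Benjamini-Hochberg adjustment over 9923 genes with at least 20 reads in every library, adjusted p under 0.05) found a lower paternal share in MD1/MD1 in both pairs for 74 of the 78 members, or 94.9%. Across all genes compared, 7.28% were lower in both pairs. No member was higher in both pairs, against 7.86% of all genes. With 1 library per combined genotype, such a p compares libraries and not genotypes. The members were chosen for linkage to Smchd1 and neighbours are inherited together, so the 74 are not independent findings. The 4 members that were not lower in both pairs were Tgif1, Emilin2, Ypel5 and Lbh.

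The maternal-type reading was not limited to the interval. Along chromosome 17, Ezr, which starts at 6942480, had paternal shares of 51.3% in MD1/MD1 and 50.8% in +/+ with XistdeltaA/+, and of 52.3% in MD1/MD1 and 51.6% in +/+ with Xist1lox/+. The next gene with enough reads, Rps6ka2 at 7374464, had 0% in MD1/MD1 and 52.0% in +/+ with XistdeltaA/+, and 0% in MD1/MD1 and 51.4% in +/+ with Xist1lox/+. Both MD1/MD1 libraries thus changed from both alleles to maternal-type alleles between the same neighbouring genes. From 10 to 60 Mb of the chromosome the pooled share was 1.04% in MD1/MD1 and 49.8% in +/+ with XistdeltaA/+, and 0.359% in MD1/MD1 and 49.6% in +/+ with Xist1lox/+.

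**Figure D1:**
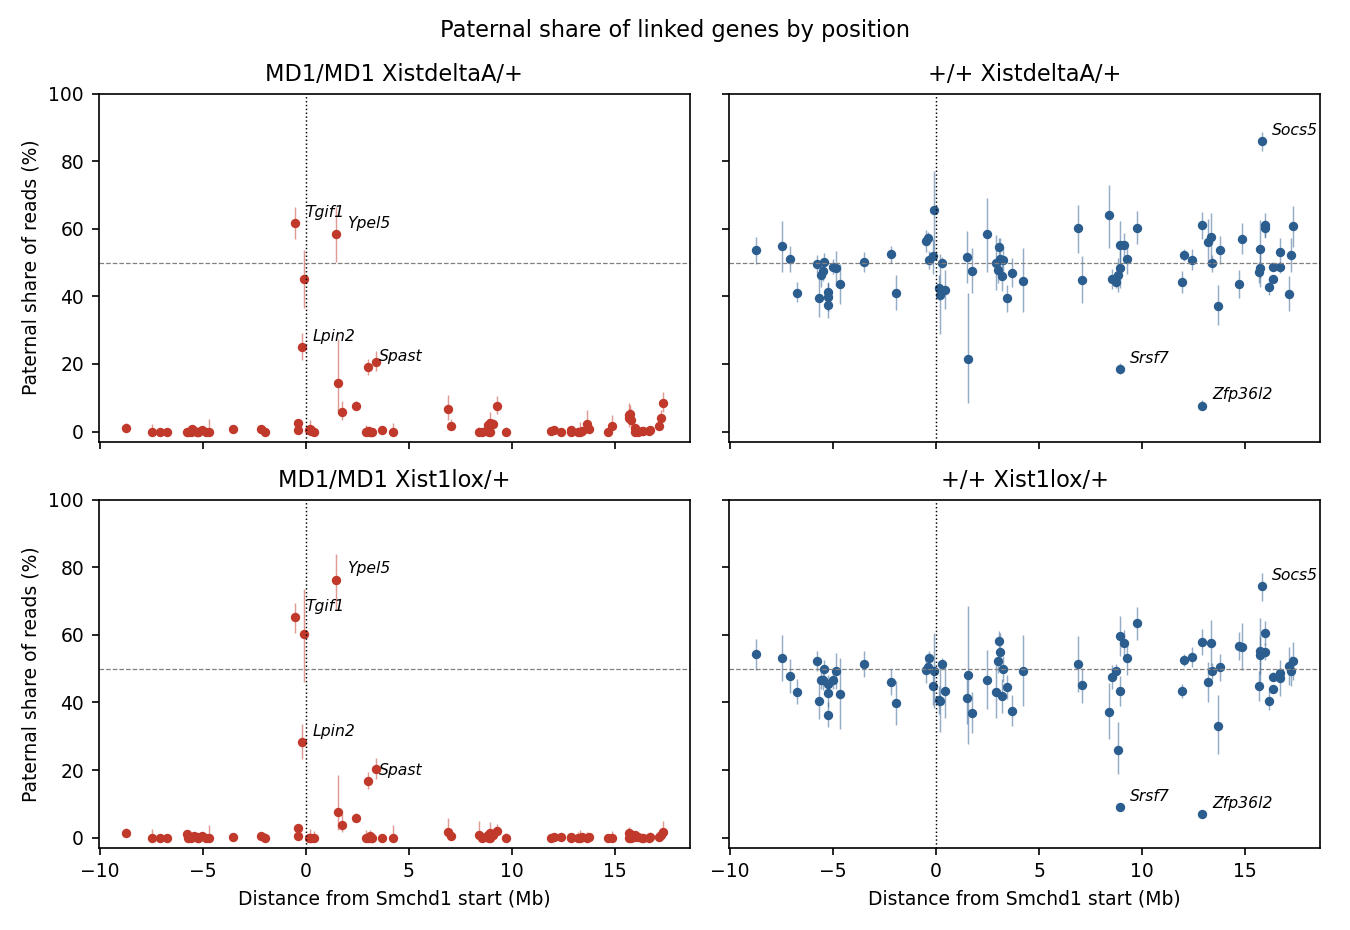
Paternal share (percent of allele-assigned reads) of each member with at least 20 reads in every library, by distance of its start from the start of Smchd1 in Mb, with MD1/MD1 libraries on the left, +/+ libraries on the right and exact 95% intervals as bars. In MD1/MD1 most members sit at 0 to 2% and 6 members between -0.50 and 3.42 Mb lie at 10% or more in both libraries, while +/+ members centre near 50%.

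A short list of genes next to Smchd1 had paternal-type reads in MD1/MD1 cells. The strain that flanks MD1 is not named. Near Smchd1 such a read therefore gives the variant carried, and its parental chromosome was not determined. A share of at least 10% in both MD1/MD1 libraries was found for 6 of the 78 members (7.69%), namely Tgif1, Lpin2, Emilin2, Ypel5, Spast and Ttc27. All 6 start between 0.50 Mb before and 3.42 Mb after the start of Smchd1, a stretch of 3.92 Mb. In 10 Mb windows elsewhere on the autosomes that were likewise maternal-type in both MD1/MD1 libraries and biallelic in both +/+ libraries, 1 of 518 genes (0.193%) reached that share. That gene was Psmb8, on chromosome 17. Of these 518 genes 377 lie on chromosome 17 itself, outside the interval, and 141 on chromosome 19. By position in windows of 5 Mb, the pooled share in the MD1/MD1 XistdeltaA/+ library was 0.141% at 60 to 65 Mb, 0.231% at 65 to 70 Mb, 6.09% at 70 to 75 Mb, 8.39% at 75 to 80 Mb, 0.512% in the next window and 0.534% in the last, which ends at 90 Mb. In the MD1/MD1 Xist1lox/+ library the same windows gave 0.299%, 0.262%, 5.66%, 8.62%, 0.231% and 0.155%. The window at 75 to 80 Mb pooled only 5 members. Most of its paternal reads were of Ttc27, with 151 in MD1/MD1 XistdeltaA/+ and 139 in MD1/MD1 Xist1lox/+. The median share of these 5 members was 1.54% in MD1/MD1 XistdeltaA/+ and 0.392% in MD1/MD1 Xist1lox/+.

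Tgif1, a homeodomain repressor that limits TGF-beta and retinoic acid signalling, had a paternal share of 61.7% (56.9 to 66.5) in MD1/MD1 and 56.4% in +/+ with XistdeltaA/+. With Xist1lox/+ its share was 65.2% (60.6 to 69.6) in MD1/MD1 and 49.7% in +/+. The adjusted Fisher's exact p was 0.167 in the XistdeltaA/+ pair and 2.07e-06 in the Xist1lox/+ pair, so the share was higher in MD1/MD1 by the test in the Xist1lox/+ pair alone. Ypel5, a small conserved protein of the yippee family, had 58.5% (50.1 to 66.6) in MD1/MD1 and 51.7% in +/+ with XistdeltaA/+ (adjusted p 0.432, Fisher's exact test). With Xist1lox/+ it had 76.4% (67.3 to 83.9) in MD1/MD1 and 41.4% in +/+ (adjusted p 2.99e-08, Fisher's exact test). Paternal-type reads of both genes were thus at or above an even split in MD1/MD1 cells, unlike those of nearly all other members.

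Emilin2, an extracellular matrix glycoprotein, had 45.0% in MD1/MD1 and 65.6% in +/+ with XistdeltaA/+, and 60.4% in MD1/MD1 and 49.4% in +/+ with Xist1lox/+, on 53 to 140 reads. The Fisher's exact test gave adjusted p of 0.0202 in the XistdeltaA/+ pair, where the share was lower in MD1/MD1, and 0.413 in the Xist1lox/+ pair. The other 3 were lower in MD1/MD1 in both pairs but far from 0. Lpin2, a phosphatidate phosphatase of lipid synthesis, had 25.1% in MD1/MD1 and 51.9% in +/+ with XistdeltaA/+, and 28.3% in MD1/MD1 and 44.9% in +/+ with Xist1lox/+. Spast, which severs microtubules, had 19.0% in MD1/MD1 and 54.5% in +/+ with XistdeltaA/+, and 16.8% in MD1/MD1 and 58.3% in +/+ with Xist1lox/+. Ttc27, a tetratricopeptide repeat protein, had 20.7% in MD1/MD1 and 39.4% in +/+ with XistdeltaA/+, and 20.4% in MD1/MD1 and 44.5% in +/+ with Xist1lox/+. Spast and Ttc27 differed by less than 3 percentage points between the MD1/MD1 libraries.

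Genes with and without paternal-type reads alternated within this stretch. It holds 20 members with enough reads, of which 10 were under 2% in both MD1/MD1 libraries, and none of the 58 members outside it reached 10% in both. Wdr43, a factor of ribosome assembly that starts 0.272 Mb after Smchd1, had 0.176% in MD1/MD1 and 49.9% in +/+ with XistdeltaA/+, and 0% in MD1/MD1 and 51.4% in +/+ with Xist1lox/+. These shares rested on 3415 to 3528 reads, more than for any of the 6 genes above. Birc6, an inhibitor of apoptosis, starts between Spast and Ttc27 and had 0% in both MD1/MD1 libraries, against 50.7% in +/+ XistdeltaA/+ and 49.8% in +/+ Xist1lox/+. Intermediate shares were seen for Lbh, a transcription cofactor of limb and heart, with 14.3% in MD1/MD1 and 21.4% in +/+ with XistdeltaA/+ and 7.69% in MD1/MD1 and 48.0% in +/+ with Xist1lox/+, on 25 to 52 reads. Its Fisher's exact test gave adjusted p of 0.711 in the XistdeltaA/+ pair and 0.00035 in the Xist1lox/+ pair. Outside the stretch the highest value in an MD1/MD1 library was 8.40% for Ston1, an endocytic adaptor, in MD1/MD1 XistdeltaA/+, against 60.7% in +/+ XistdeltaA/+.

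Some members gave no allele information. Of the 92, 14 had under 20 allele-assigned reads in some library and 10 had none in any library (10.9%, against 9.98% of the 11471 genes). Of those 10, 9 lie in 1 run of neighbouring genes from Strn, which starts 7.36 Mb after Smchd1, to Cdc42ep3, 8.04 Mb after it. This run of 0.701 Mb holds 10 members, and its only member with reads was Eif2ak2, the interferon-induced kinase PKR, with 3 reads in MD1/MD1 and 11 in +/+ with XistdeltaA/+ and 6 in MD1/MD1 and 13 in +/+ with Xist1lox/+. These genes were expressed: Cebpz, named as a CCAAT-binding protein, had 28.9 FPKM in MD1/MD1 and 27.3 in +/+ with XistdeltaA/+, and 27.9 in MD1/MD1 and 25.3 in +/+ with Xist1lox/+. The other member without reads was Kcnk12, a potassium channel. Cox7a2l, an assembly factor of respiratory supercomplexes, had 1518 reads in MD1/MD1 and 0 in +/+ with XistdeltaA/+, and 2328 reads in MD1/MD1 and 1746 in +/+ with Xist1lox/+. Its FPKM was 116 in MD1/MD1 and 144 in +/+ with XistdeltaA/+, and 145 in MD1/MD1 and 141 in +/+ with Xist1lox/+, so a count of 0 reads there did not go with a low level.

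Total expression of most members differed little between genotypes. FPKM was compared as log2(FPKM + 1), a scale that understates the change of low genes, and limma with a trend fitted Smchd1 genotype and Xist mutation. The genotype effect compared 2 libraries with 2, which left 1 residual degree of freedom. With Benjamini-Hochberg adjustment over 11471 genes limma called 1 of the 92 members, Ehd3, where it called 0.0349% of all genes tested and 0.0174% as higher. At an unadjusted p under 0.05 there were 3 members, Ehd3 and Lbh higher and Socs5 lower, against 3.26% of all genes. By size alone, 2 members (2.17%) differed by 2-fold or more in the same direction in both pairs, Ehd3 higher (0.131% of all genes were) and Socs5 lower (0.113%), where 0.244% of all genes did. In windows elsewhere with the same allele pattern the share was 0.976% of 615 genes (469 of them on chromosome 17), with 0 higher and 6 lower. In windows with both alleles in all 4 libraries it was 0.0989%, with 4 higher and 2 lower. The interval was proposed with the values of Ehd3 and Socs5 known, so the count of 2 members describes the choice.

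The median log2 ratio of MD1/MD1 over +/+ was -0.12 over the members and -0.05 over all genes in the XistdeltaA/+ pair. In the Xist1lox/+ pair it was 0.04 over the members and 0.004 over all genes. The median size of the ratio, without its sign, was 0.32 over the members and 0.27 over all genes with XistdeltaA/+, and 0.13 and 0.12 with Xist1lox/+. Both MD1/MD1 values lay above both +/+ values for 13 members (14.1%, against 13.8% of all genes), and below both for 20 (21.7%, against 18.9%). The ratio had the same sign in both pairs for 44 members, positive in 20 (21.7%, against 23.6% of all genes) and negative in 24 (26.1%, against 27.8%). These shares were near those of all genes. Between the pairs the ratios of the 92 members had a Spearman rho of 0.14, given as a description across genes, which share libraries and are not independent.

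Larger differences were mostly seen in 1 pair. In the XistdeltaA/+ pair 3 members were at least 2-fold higher in MD1/MD1 (Ehd3, Pkdcc and Zfp36l2, where 3.91% of all genes were) and 4 were at least 2-fold lower (Ptprm, Epb4.1l3, Prkce and Socs5, where 1.82% were). In the Xist1lox/+ pair 2 were higher (Ehd3 and Galm, where 0.445% of all genes were) and 1 was lower (Socs5, where 0.375% were). At 1.5-fold, 8 members were higher (9.22% of all genes) and 12 lower (9.29%) in MD1/MD1 with XistdeltaA/+, and 2 were higher (1.57%) and 1 lower (1.62%) with Xist1lox/+. Expression differed by at least 1.5-fold between the MD1/MD1 libraries for 4 members (7.15% of all genes) and between the +/+ libraries for 14 (14.2% of all genes). The larger ratios of the XistdeltaA/+ pair went with a +/+ XistdeltaA/+ library that stood apart from +/+ Xist1lox/+ more than the MD1/MD1 libraries did from each other, among the members as among all genes.

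**Figure D2:**
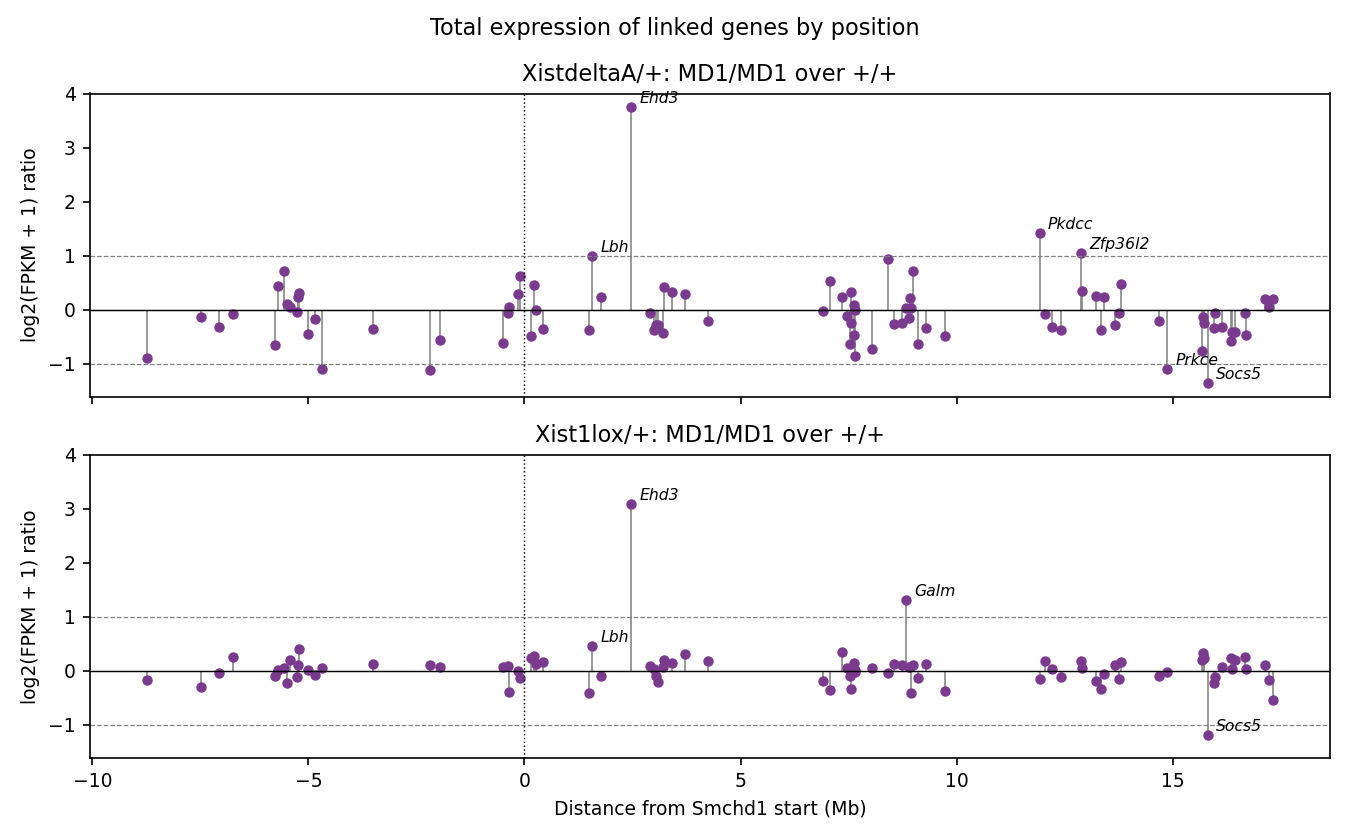
Log2 ratio of FPKM + 1, MD1/MD1 over +/+, of each of the 92 members by distance of its start from the start of Smchd1 in Mb, for the XistdeltaA/+ and the Xist1lox/+ pair, with dashed lines at 2-fold. Ehd3 stands above 3 and Socs5 below -1 in both pairs, and most other members lie within 1 unit of 0.

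Ehd3 encodes an ATPase of the EHD family that shapes membranes of recycling endosomes. It lies at 74154181 to 74181433 on the plus strand (mm9), 2.46 Mb after the start of Smchd1. Its FPKM was 32.3 in MD1/MD1 and 1.48 in +/+ with XistdeltaA/+, and 29.8 in MD1/MD1 and 2.64 in +/+ with Xist1lox/+. The 2 MD1/MD1 libraries were alike and far above both +/+ libraries, by 21.8-fold with XistdeltaA/+ and 11.3-fold with Xist1lox/+. The limma estimate was 3.41 ± 0.23 on the log2(FPKM + 1) scale (SE, 2 libraries against 2, limma adjusted p 0.0477), the third highest among the 11471 genes. That adjusted p lay just under 0.05: it was 0.0620 with a pseudocount of 0.1, 0.0501 at a mean FPKM of at least 0.1, 0.912 without a filter on FPKM, 0.203 after quantile normalization and 0.0524 with edgeR on the allele-assigned reads, while limma without the Xist term gave 0.00353 and DESeq2 gave 2.29e-28.

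Most of the difference in Ehd3 was in maternal-type transcripts. The paternal share was 7.59% (6.40 to 8.92) in MD1/MD1 and 58.3% in +/+ with XistdeltaA/+, and 5.87% (4.73 to 7.18) in MD1/MD1 and 46.7% in +/+ with Xist1lox/+. It rested on 1766 reads in MD1/MD1 and 84 in +/+ with XistdeltaA/+, and on 1500 in MD1/MD1 and 137 in +/+ with Xist1lox/+. FPKM multiplied by the share splits a level by allele. On this scale the maternal-type level was 29.8 FPKM in MD1/MD1 and 0.617 in +/+ with XistdeltaA/+, and 28.0 FPKM in MD1/MD1 and 1.41 in +/+ with Xist1lox/+. The paternal-type level was 2.45 FPKM in MD1/MD1 and 0.864 in +/+ with XistdeltaA/+, and 1.75 FPKM in MD1/MD1 and 1.23 in +/+ with Xist1lox/+. In MD1/MD1 cells Ehd3 was 26.1 times and 10.6 times what 2 copies of the +/+ maternal-type level would give in the XistdeltaA/+ and Xist1lox/+ pairs.

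The promoter of Ehd3 is shown because no other member differed by as much. The window runs from 250 bases before to 50 bases after the annotated start, from the RefSeq annotation of GRCm38.p6, plus strand, chr17:73804591-73804890, a build other than that of the deposited coordinates. Capitals mark the match to the GC box, GGGCGG, searched on both strands.
Ehd3 promoter: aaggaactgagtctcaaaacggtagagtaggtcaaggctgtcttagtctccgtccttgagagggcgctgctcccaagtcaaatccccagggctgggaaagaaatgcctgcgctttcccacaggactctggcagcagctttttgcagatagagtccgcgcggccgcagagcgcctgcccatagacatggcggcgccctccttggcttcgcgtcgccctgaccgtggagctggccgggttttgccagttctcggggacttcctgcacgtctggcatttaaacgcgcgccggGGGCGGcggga
The window held 1 GC box, a motif found in 35.7% of the 32851 promoters of the same length. It held no match to TATAAA (in 13.6% of promoters), CCAAT (37.4%) or the E-box CACGTG (7.15%), each searched on both strands. It held 24 CpG dinucleotides, against a median of 7 over all promoters, and 61.7% of its bases were G or C. The sequence is that of the C57BL/6J reference, and the alleles carried by these cells were not read here.

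The genes next to Ehd3 did not share its level. Galnt14, which lies under the FPKM threshold, had 1.38 FPKM in MD1/MD1 and 0.657 in +/+ with XistdeltaA/+, and 1.33 in MD1/MD1 and 0.392 in +/+ with Xist1lox/+. Xdh, xanthine dehydrogenase, had 1.16 FPKM in MD1/MD1 and 0.0286 in +/+ with XistdeltaA/+, and 0.254 in MD1/MD1 and 0.235 in +/+ with Xist1lox/+. The Galnt14 values of MD1/MD1 were thus above those of +/+ in both pairs at a low level, and those of Xdh mainly in the XistdeltaA/+ pair. The nearest members, Lclat1 and Memo1, had ratios of 0.23 and -0.06 on the log2 scale with XistdeltaA/+ and of -0.10 and 0.08 with Xist1lox/+. None of the 65 entries under the threshold reached 2-fold in both pairs on the log2(FPKM + 1) scale. That scale shrinks ratios at such low levels, so this count cannot show that the low entries were unchanged. By FPKM itself Galnt14 was 2.10-fold higher in MD1/MD1 with XistdeltaA/+ and 3.39-fold higher with Xist1lox/+.

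Socs5 encodes a suppressor of cytokine signalling that limits signals of cytokine and growth factor receptors. It lies at 87507019 to 87536925 (mm9), 15.8 Mb after the start of Smchd1. Its FPKM was 4.88 in MD1/MD1 and 14.0 in +/+ with XistdeltaA/+, and 3.95 in MD1/MD1 and 10.3 in +/+ with Xist1lox/+, so both MD1/MD1 libraries lay below both +/+ libraries. The log2 ratio was -1.35 with XistdeltaA/+ and -1.19 with Xist1lox/+. By limma the difference was -1.27 ± 0.19 (SE, 2 libraries against 2), with a limma adjusted p of 0.620, so it did not pass the test. It ranked 17th lowest of 11471 genes.

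In +/+ cells Socs5 had the highest paternal share of all members in both libraries. That share was 86.0% (82.9 to 88.8) in +/+ XistdeltaA/+ and 74.3% (70.2 to 78.2) in +/+ Xist1lox/+. In MD1/MD1 it was 3.42% (1.49 to 6.63) with XistdeltaA/+ and 0% with Xist1lox/+. In the latter library 0 of 168 reads allow a share of up to about 1.79%, taken as 3 reads of 168 and not as an exact interval. Split by allele, the maternal-type level was 4.71 FPKM in MD1/MD1 and 1.96 in +/+ with XistdeltaA/+, and 3.95 in MD1/MD1 and 2.64 in +/+ with Xist1lox/+. The paternal-type level was 0.167 FPKM in MD1/MD1 and 12.1 in +/+ with XistdeltaA/+, and 0 in MD1/MD1 and 7.63 in +/+ with Xist1lox/+. The level in MD1/MD1 was 1.24 times with XistdeltaA/+ and 0.749 times with Xist1lox/+ what 2 copies of the +/+ maternal-type level would give. Socs5 thus differed from Ehd3, whose level in MD1/MD1 was many times that value.

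**Figure D3:**
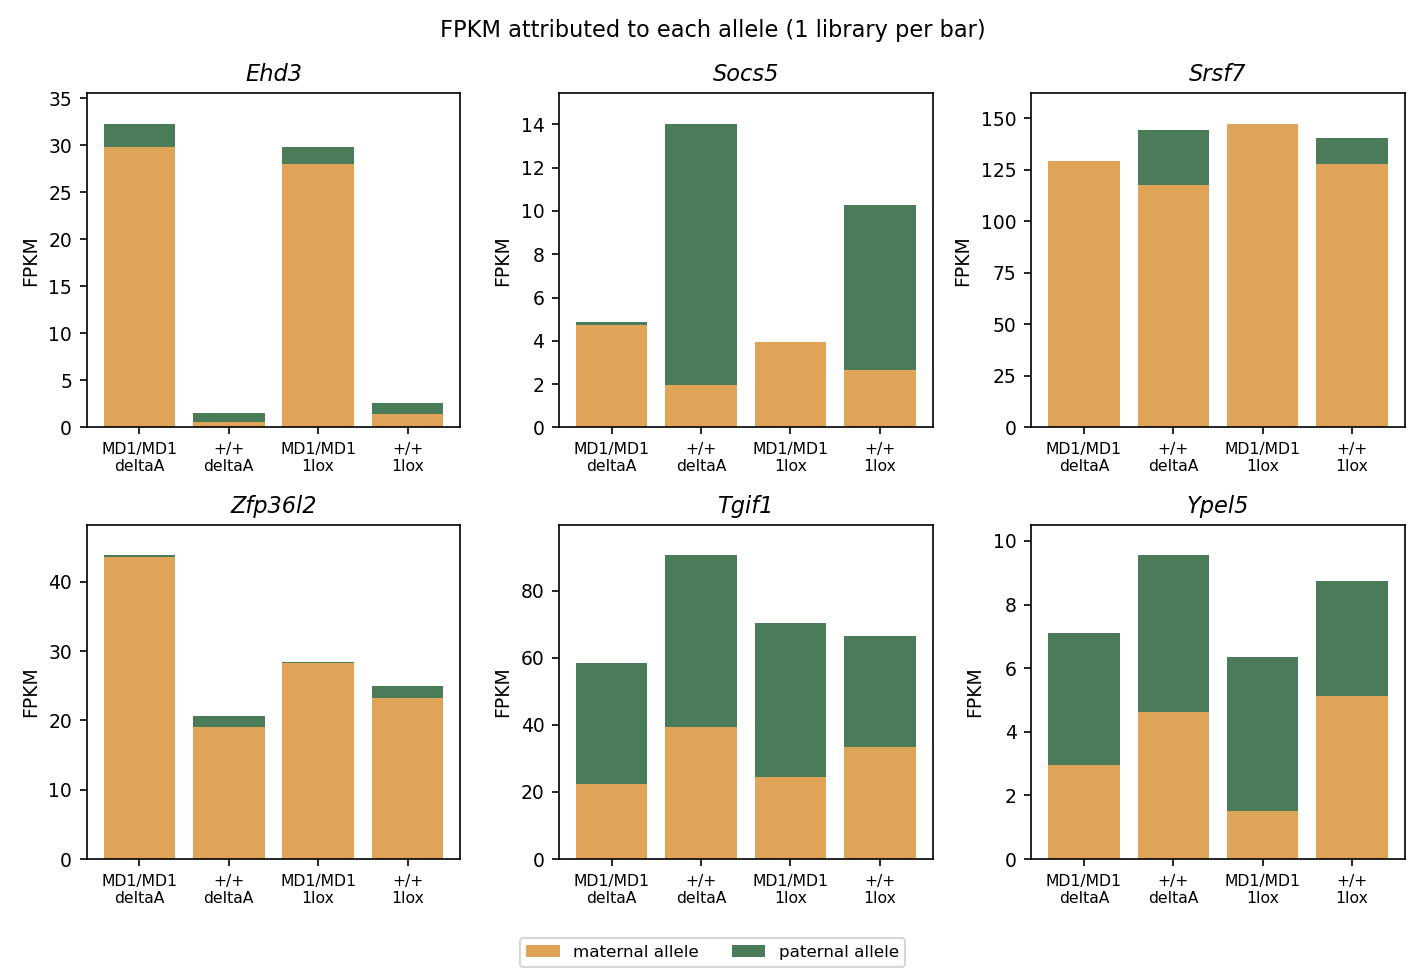
FPKM attributed to the maternal-type and the paternal-type allele (FPKM multiplied by the share of each) stacked in 1 bar per library, for Ehd3, Socs5, Srsf7, Zfp36l2, Tgif1 and Ypel5. For Ehd3 the maternal-type level is 29.8 and 28.0 in MD1/MD1 against 0.617 and 1.41 in +/+, and for Socs5 the paternal-type level is 0.167 and 0 in MD1/MD1 against 12.1 and 7.63 in +/+.

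The 3 members on each side of Smchd1 showed no difference that passed the test. Emilin2, 0.0923 Mb before its start, had 2.36 FPKM in MD1/MD1 and 1.18 in +/+ with XistdeltaA/+, and 1.07 in MD1/MD1 and 1.27 in +/+ with Xist1lox/+. Lpin2 had 5.65 FPKM in MD1/MD1 and 4.43 in +/+ with XistdeltaA/+, and 3.56 FPKM in both Xist1lox/+ libraries. Both were higher in MD1/MD1 with XistdeltaA/+ and not with Xist1lox/+. Myl12a, a regulatory light chain of nonmuscle myosin, had 217 FPKM in MD1/MD1 and 210 in +/+ with XistdeltaA/+, and 210 in MD1/MD1 and 274 in +/+ with Xist1lox/+. It has a near-identical neighbour, Myl12b, and the sources used here do not say how reads were split between them. On the other side, Ndc80, a kinetochore protein, had 14.5 FPKM in MD1/MD1 and 20.7 in +/+ with XistdeltaA/+, and 20.7 in MD1/MD1 and 17.3 in +/+ with Xist1lox/+. Its direction was thus opposite in the pairs. Trmt61b, a mitochondrial RNA methyltransferase, had 7.09 FPKM in MD1/MD1 and 4.92 in +/+ with XistdeltaA/+, and 7.66 in MD1/MD1 and 6.11 in +/+ with Xist1lox/+. Wdr43 had 63.5 FPKM in MD1/MD1 and 63.7 in +/+ with XistdeltaA/+, and 67.6 in MD1/MD1 and 61.5 in +/+ with Xist1lox/+. None of these 6 passed the limma test, with limma adjusted p of 0.937 to 0.970.

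Tgif1 and Ypel5, which had paternal-type reads in MD1/MD1, did not differ in total level by the test. Tgif1 had 58.4 FPKM in MD1/MD1 and 90.6 in +/+ with XistdeltaA/+, and 70.3 in MD1/MD1 and 66.5 in +/+ with Xist1lox/+. Ypel5 had 7.10 FPKM in MD1/MD1 and 9.54 in +/+ with XistdeltaA/+, and 6.35 in MD1/MD1 and 8.75 in +/+ with Xist1lox/+. Ypel5 was below +/+ in both pairs and Tgif1 in the XistdeltaA/+ pair, neither past the limma test (limma adjusted p 0.937 for both).

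Of the members arranged by role, 71 fall into 8 lists and 21 into none. Only the lists of membrane traffic and of signalling held a member past limma or past 2-fold in both pairs. Genome maintenance and transcription had 11 members, with none past limma and median log2 ratios of -0.06 with XistdeltaA/+ and 0.10 with Xist1lox/+. Its most abundant member was Dpy30, a subunit of histone H3K4 methyltransferase complexes, at 162 FPKM in MD1/MD1 and 211 in +/+ with XistdeltaA/+, and 208 in MD1/MD1 and 204 in +/+ with Xist1lox/+. Its member furthest from 0 was Lbh, at 8.71 FPKM in MD1/MD1 and 3.86 in +/+ with XistdeltaA/+, and 8.06 in MD1/MD1 and 5.56 in +/+ with Xist1lox/+ (limma adjusted p 0.937).

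RNA processing and translation had 7 members, none of them past limma, with medians of 0.03 with XistdeltaA/+ and -0.05 with Xist1lox/+. Thumpd2, an RNA methyltransferase, lay furthest from 0, with 5.44 FPKM in MD1/MD1 and 7.98 in +/+ with XistdeltaA/+, and 5.86 in MD1/MD1 and 7.88 in +/+ with Xist1lox/+. Its 4 values did not overlap between the genotypes. The mitochondrial list had 4 members, none past limma, with medians of -0.18 with XistdeltaA/+ and -0.02 with Xist1lox/+. Ndufaf7, an assembly factor of respiratory complex I, had 8.60 FPKM in MD1/MD1 and 16.5 in +/+ with XistdeltaA/+, and 12.5 in MD1/MD1 and 12.3 in +/+ with Xist1lox/+.

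Membrane traffic and organelles had 13 members, of which Ehd3 passed limma, with medians of -0.26 with XistdeltaA/+ and -0.09 with Xist1lox/+. Vapa, which tethers the endoplasmic reticulum to other membranes, was its most abundant member at 78.8 FPKM in MD1/MD1 and 125 in +/+ with XistdeltaA/+, and 98.8 in MD1/MD1 and 105 in +/+ with Xist1lox/+. Signalling had 15 members, of which Socs5 was past 2-fold in both pairs and none passed limma, with medians of -0.31 with XistdeltaA/+ and 0.04 with Xist1lox/+. Calm2, a calmodulin gene, was the most abundant of all members at 488 FPKM in MD1/MD1 and 606 in +/+ with XistdeltaA/+, and 572 in MD1/MD1 and 546 in +/+ with Xist1lox/+. Prkce, protein kinase C epsilon, had 1.24 FPKM in MD1/MD1 and 3.81 in +/+ with XistdeltaA/+, and 1.46 in MD1/MD1 and 1.51 in +/+ with Xist1lox/+, so a single library, +/+ XistdeltaA/+, stood apart. Sos1, the exchange factor that activates Ras, had 4.66 FPKM in MD1/MD1 and 7.77 in +/+ with XistdeltaA/+, and 4.73 in MD1/MD1 and 5.29 in +/+ with Xist1lox/+. Ppp4r1, a regulatory subunit of protein phosphatase 4, had 29.0 FPKM in MD1/MD1 and 17.3 in +/+ with XistdeltaA/+, and 27.7 in MD1/MD1 and 26.7 in +/+ with Xist1lox/+, where again +/+ XistdeltaA/+ stood apart.

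Extracellular and adhesion genes had 8 members, none past limma, with medians of 0.005 with XistdeltaA/+ and 0.04 with Xist1lox/+. Epcam, the epithelial adhesion molecule that marks pluripotent cells, had 232 FPKM in MD1/MD1 and 348 in +/+ with XistdeltaA/+, and 293 in MD1/MD1 and 249 in +/+ with Xist1lox/+. Pkdcc, a secreted tyrosine kinase of skeletal development, had 62.9 FPKM in MD1/MD1 and 22.9 in +/+ with XistdeltaA/+, and 45.7 in MD1/MD1 and 50.8 in +/+ with Xist1lox/+. Epcam and Pkdcc each differed in direction between the pairs. Efna5, an ephrin ligand, was below +/+ in both, with 7.37 FPKM in MD1/MD1 and 14.5 in +/+ with XistdeltaA/+, and 10.4 in MD1/MD1 and 11.7 in +/+ with Xist1lox/+ (limma adjusted p 0.937).

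The cytoskeleton list had 7 members, none past limma, with medians of -0.08 with XistdeltaA/+ and 0.08 with Xist1lox/+. Myl12b had 230 FPKM in MD1/MD1 and 241 in +/+ with XistdeltaA/+, and 279 in MD1/MD1 and 263 in +/+ with Xist1lox/+. Epb4.1l3, a membrane skeleton protein, had 9.85 FPKM in MD1/MD1 and 22.4 in +/+ with XistdeltaA/+, and 12 in MD1/MD1 and 11.2 in +/+ with Xist1lox/+. Metabolism had 7 members, none past limma, with medians of 0.23 with XistdeltaA/+ and -0.0002 with Xist1lox/+. Galm, which interconverts the anomers of galactose, had 8.89 FPKM in MD1/MD1 and 8.69 in +/+ with XistdeltaA/+, and 8.36 in MD1/MD1 and 2.78 in +/+ with Xist1lox/+. The low library for Galm was +/+ Xist1lox/+, where its paternal share was also low at 26.1%, against 46.3% in +/+ XistdeltaA/+. In MD1/MD1 its share was 1.96% with XistdeltaA/+ and 0.847% with Xist1lox/+. Among members in no list, Morn2 had 4.46 FPKM in MD1/MD1 and 2.33 in +/+ with XistdeltaA/+, and 4.31 in MD1/MD1 and 3.94 in +/+ with Xist1lox/+, and it overlaps Dhx57 by 265 bases on the other strand. The kit was stranded but the sources used here do not give the strand setting of the counting, and 5 pairs of members overlap in this way.

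The alleles of several members were unequally read in +/+ cells, where both were present. Unequal expression and unequal mapping of the variants were not told apart. An exact binomial test against 50% (two-sided, Benjamini-Hochberg adjustment over 9582 autosomal genes, adjusted p under 0.05) was passed in the same direction in both +/+ libraries by 22 of the 78 members. Of these, 8 leaned to the paternal allele (10.3%, against 6.4% of autosomal genes) and 14 to the maternal allele (17.9%, against 29.9%). In autosomal windows with both alleles in +/+ the shares were 9.46% and 17.1%, close to those of the members. Against the pooled share of such windows, 48.8% in +/+ XistdeltaA/+ and 48.3% in +/+ Xist1lox/+, the split became 12 paternal and 12 maternal. The 8 paternal-leaning members were Socs5, Ttc7, Thumpd2, Thada, Mcfd2, Spast, Sos1 and Eml4. The shares in both +/+ libraries had a Spearman rho of 0.66 over 78 genes, as a description, and some members differed widely between these libraries, such as Cyp1b1 with 64.0% in +/+ XistdeltaA/+ and 37.1% in +/+ Xist1lox/+.

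By the mean of both +/+ libraries, the highest shares after that of Socs5 were those of Thumpd2, at 60.3% in +/+ XistdeltaA/+ and 63.5% in +/+ Xist1lox/+, and of Ttc7, a scaffold of a lipid kinase complex, at 61.0% and 60.6% in the same libraries. Thada had 61.0% in +/+ XistdeltaA/+ and 57.9% in +/+ Xist1lox/+, and Dync2li1, a light chain of ciliary dynein, had 57.6% in both. All 4 had 0% in MD1/MD1 XistdeltaA/+ and at most 0.15% in MD1/MD1 Xist1lox/+. Dync2li1 had 9.49 FPKM in MD1/MD1 and 12.7 in +/+ with XistdeltaA/+, and 11.0 in MD1/MD1 and 14.3 in +/+ with Xist1lox/+, without overlap between the genotypes.

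The lowest +/+ shares were those of Zfp36l2 and Srsf7. Zfp36l2, which binds AU-rich elements and promotes mRNA decay, had 0.456% in MD1/MD1 and 7.66% in +/+ with XistdeltaA/+, and 0.275% in MD1/MD1 and 7.03% in +/+ with Xist1lox/+. Its FPKM was 43.8 in MD1/MD1 and 20.7 in +/+ with XistdeltaA/+, and 28.4 in MD1/MD1 and 25 in +/+ with Xist1lox/+. Srsf7, a splicing factor, had 0% in MD1/MD1 and 18.5% in +/+ with XistdeltaA/+, and 0.0484% in MD1/MD1 and 9.02% in +/+ with Xist1lox/+. Its total was level, with 129 FPKM in MD1/MD1 and 144 in +/+ with XistdeltaA/+, and 147 in MD1/MD1 and 140 in +/+ with Xist1lox/+. The Srsf7 level in MD1/MD1 was 0.55 times what 2 copies of the +/+ maternal-type level would give with XistdeltaA/+, and 0.577 times with Xist1lox/+. Both genes were thus read mostly from maternal-type alleles in all 4 libraries, on 1331 to 2849 reads for Zfp36l2 and 1907 to 2182 for Srsf7. Ppm1b, a protein phosphatase, had 2.24% in MD1/MD1 and 37.2% in +/+ with XistdeltaA/+, and 0% in MD1/MD1 and 33.1% in +/+ with Xist1lox/+.

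Members with a higher paternal share in +/+ cells tended to have a lower ratio of MD1/MD1 over +/+, and the cause was not tested. To keep the measures in separate libraries, the share in the +/+ library of 1 Xist background was set against the log2 ratio of the other pair. The share in +/+ Xist1lox/+ and the ratio of the XistdeltaA/+ pair had a Spearman rho of -0.27 over 78 members, and -0.24 over 76 without Ehd3 and Socs5. The share in +/+ XistdeltaA/+ and the ratio of the Xist1lox/+ pair had a rho of -0.50 over the 78 and -0.52 over the 76. In windows elsewhere with the same allele pattern the values were -0.31 and -0.48 over 491 genes, 357 of them on chromosome 17. In windows with both alleles in all 4 libraries they were -0.05 and 0.02 over 5181 genes. These are descriptions across genes that share libraries, not tests over samples.

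**Figure D4:**
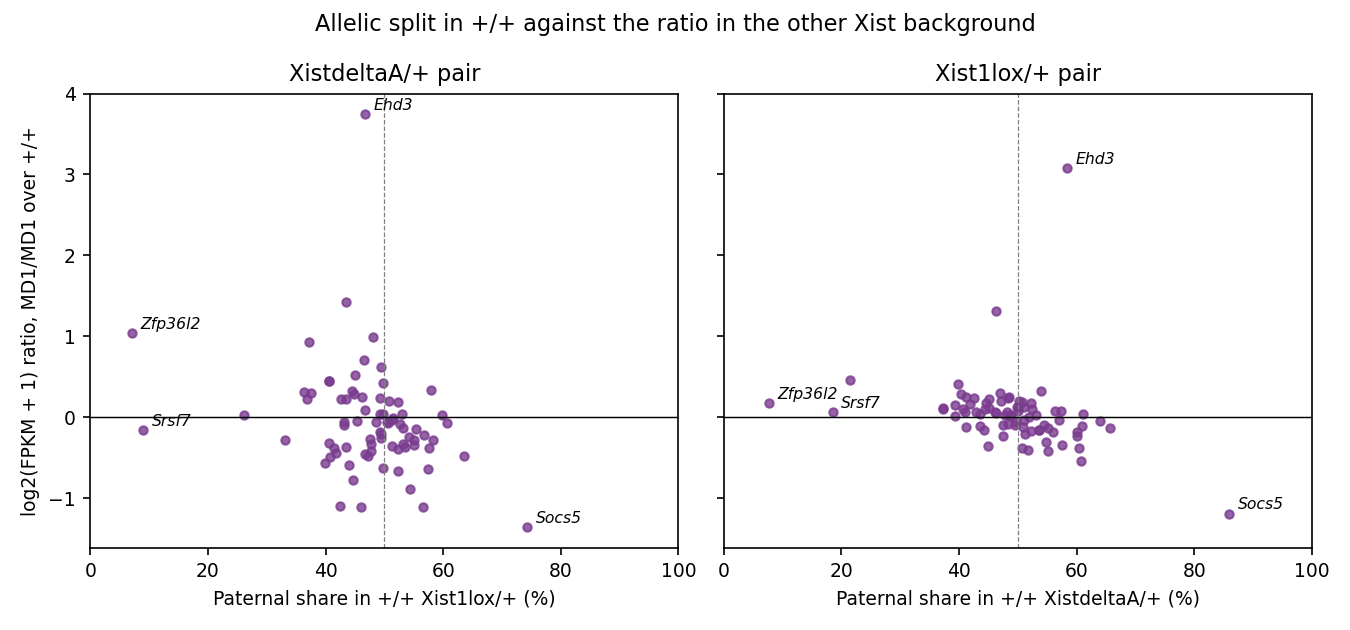
Log2 ratio of FPKM + 1 (MD1/MD1 over +/+) of 1 Xist background against the paternal share (percent) in the +/+ library of the other background, 1 point per member with at least 20 reads in every library (78 members). The points slope downward, with a rho of -0.27 for the XistdeltaA/+ ratio and -0.50 for the Xist1lox/+ ratio.

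By groups of members, the 8 that leaned to the paternal allele had log2 ratios with a median of -0.31 in XistdeltaA/+ and -0.12 in Xist1lox/+ cells. In 6 of the 8 both MD1/MD1 values lay below both +/+ values, as for 18.9% of all genes. The 14 that leaned to the maternal allele had medians of -0.06 with XistdeltaA/+ and 0.11 with Xist1lox/+, and in 5 of the 14 both MD1/MD1 values lay above both +/+ values, as for 13.8% of all genes, and in 0 below. The leaning was called in the same +/+ libraries that enter the ratio and this count, so both are descriptions. Across the 78 members, the level in MD1/MD1 was set over 2 copies of the +/+ maternal-type level. The median was 0.95 with XistdeltaA/+ and 0.973 with Xist1lox/+. This ratio lay within 1.5-fold of 1 for 60 members with XistdeltaA/+ and for 72 with Xist1lox/+. The plain log2(FPKM + 1) ratio of the 92 members left few outside 1.5-fold as well. With XistdeltaA/+ 8 were higher and 12 lower, and with Xist1lox/+ 2 were higher and 1 lower. The ratio to the doubled level used FPKM without a pseudocount and 78 members, so the counts differ in scale and in members. They cannot set the doubled maternal-type level apart from no change.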

How the data were processed

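Stranded mRNA libraries were made from total RNA, per the labels' protocols, and the submitters' processing notes list Cuffdiff, Cufflinks 2.2.1 and mm9 without saying what each was used for. The sources used here do not give the aligner, variant list or annotation. Per the file headers, the authors deposited for each gene and library a count of allele-assigned reads, the fraction of these that is paternal, and FPKM. Paternal reads (count times fraction) came out whole for 100% of values within 1e-06. A further 6 columns of other samples were not used. Coordinates count from 1.

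Here limma 3.58.1 with a trend was fitted to log2(FPKM + 1) of 11471 genes. Fisher's exact and binomial tests used scipy 1.17.1 on genes with at least 20 reads in every library. Windows of 10 Mb were called maternal-type under a median share of 5% and biallelic from 20%. edgeR 4.0.16 and DESeq2 1.42.0 on the allele-assigned counts, at least 10 in 2 libraries, were alternatives. All tests were tested on simulated data. Promoters came from RefSeq (GRCm38.p6), where 73 of 92 member symbols matched. The members and role lists were chosen with earlier results of these data known. Named members are those past limma or 2-fold, the 6 highest and 6 lowest ratios of 1 sign, the 5 most abundant, the 3 nearest Smchd1 on each side, the 5 highest and 5 lowest +/+ shares, those at 10% or more in both MD1/MD1 libraries and examples of each list. Wdr43 shares, Birc6, Ston1, Cyp1b1 shares, Cox7a2l, Cebpz, Lclat1, Memo1, Galnt14, Xdh and the members without reads were chosen after their values were seen. The values of 1 member are not reported here.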

Additional observations from a re-analysis of the deposited data

How the results depend on the processing

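limma called 1 member as reported, 0 with a pseudocount of 0.1, 0 with a mean FPKM of at least 0.1, 0 without a filter on FPKM, 0 after quantile normalization and 0 by edgeR on the allele-assigned reads. It was 1 without the Xist term and 1 by DESeq2. Leaving out each library in turn (Smchd1 genotype alone, the lone library assumed to vary like the others) gave 1 to 1. The 2-fold count was 2 with a pseudocount of 0.1, at 1.5-fold and on depth-scaled reads, Ehd3 and Socs5 each time, and 3 in the Xist1lox/+ pair alone, a setting chosen after seeing the data. The pooled paternal share moved as the median over genes to 0.299% in MD1/MD1 and 49.6% in +/+ (XistdeltaA/+), and to 0.125% in MD1/MD1 and 48.3% in +/+ (Xist1lox/+). Without the 5 members with most reads it was 2.49% in MD1/MD1 and 47.3% in +/+ (XistdeltaA/+), and 2.14% in MD1/MD1 and 46.2% in +/+ (Xist1lox/+). Members lower by Fisher's exact test in both pairs numbered 75 at 10 reads and 70 at 100, and those with unequal alleles in +/+ 23 and 22. Of 30 named members, the sign of the mean ratio stayed for 30 under a pseudocount of 0.1 and quantile normalization and for 28 on depth-scaled reads. Each combined genotype had 1 library, so libraries were paired by Xist mutation alone, and the Xist term of the reported fit was its only block. The depth behind FPKM is unknown.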
